A study of Homo sapiens with 20 samples.

Results

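Thioredoxin-interacting protein (TXNIP) and the arrestin domain-containing genes ARRDC1, ARRDC2, ARRDC3 and ARRDC4 were examined in Jurkat T lymphoblasts with and without surface CD47. The genes were chosen by their symbols, and the 5 genes found are 5 of 60719 in the deposited table. All 5 members were among the 16327 genes that passed a filter on low counts.

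Gene expression was measured by mRNA sequencing in 20 libraries, 10 of them from wild-type (WT) Jurkat cells, an established T cell line of a human leukemia. The other 10 came from its somatic mutant JinB8, which lacks surface CD47 (CD47-). Untreated (UT) cells gave 1 library per line, at 1 h. The other 9 of each line were 3 treatments at 1, 3 and 6 h: antibodies to CD3 and CD28 coated on the plate (CD3+CD28), the same antibodies plus thrombospondin-1 (CD3+CD28+TSP1), and thrombospondin-1 alone (TSP1). TSP1, a secreted glycoprotein that binds CD47, was used at 1 μg/mL and anti-CD28 at 4 μg/mL. Every group was held in HITES, a serum-free medium that contains insulin, transferrin, selenite and hydrocortisone, so the untreated cells also received these. No condition was repeated within a line, and the labels do not say whether libraries came from separate cultures. The p-values thus measure the spread between these libraries and not between repeats of a condition. In the comparison of the lines over all libraries, that spread includes the effects of treatment and time. In the other comparisons it is what the terms for treatment and time leave over. JinB8 is a single mutant line, and loss of CD47 cannot be told apart from other differences between the lines.

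TXNIP and the ARRDC proteins carry an arrestin fold. TXNIP binds reduced thioredoxin and promotes the internalization of glucose transporters, and its transcription is raised by glucose through the paired factors MLXIP (MondoA) and MLX. ARRDC proteins recruit NEDD4 family ubiquitin ligases through PPxY motifs and thereby adapt membrane cargo for ubiquitination. In T cells, TXNIP mRNA is known to fall when antigen receptor signaling raises growth and glucose use.

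The promoters of TXNIP, ARRDC4 and ARRDC3 are shown because these genes differed most between the lines, TXNIP and ARRDC4 in one direction and ARRDC3 in the other. Each sequence is the 250 bases before the RefSeq transcript start (GRCh38.p14) that lies farthest upstream, 5′ to 3′ on the strand of the gene. Motifs were searched on both strands and did not overlap, and capitals mark the matches to a CCAAT box, an E-box (CACGTG), a pair of E-box-like elements (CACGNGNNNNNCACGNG), a forkhead motif (TGTTTAC) or a glucocorticoid element (GNACANNNTGTNC). The E-box is itself one form of each element of the pair. The letters of the pair of E-box-like elements were chosen with the TXNIP sequence in view. The TXNIP sequence lies at chr1:145996580-145996829 on the minus strand, the ARRDC4 sequence at chr15:97960453-97960702 on the plus strand and the ARRDC3 sequence at chr5:91383318-91383567 on the minus strand.
TXNIP: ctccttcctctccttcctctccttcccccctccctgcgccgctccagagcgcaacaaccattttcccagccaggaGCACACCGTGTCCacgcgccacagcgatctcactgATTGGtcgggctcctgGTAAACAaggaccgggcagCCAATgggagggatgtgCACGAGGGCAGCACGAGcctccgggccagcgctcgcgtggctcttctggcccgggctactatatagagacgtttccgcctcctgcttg
ARRDC4: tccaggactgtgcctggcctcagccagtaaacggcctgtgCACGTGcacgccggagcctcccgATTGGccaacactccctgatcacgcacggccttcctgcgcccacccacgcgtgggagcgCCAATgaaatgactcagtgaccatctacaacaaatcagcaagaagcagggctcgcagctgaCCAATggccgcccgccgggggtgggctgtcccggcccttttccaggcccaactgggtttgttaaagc
ARRDC3: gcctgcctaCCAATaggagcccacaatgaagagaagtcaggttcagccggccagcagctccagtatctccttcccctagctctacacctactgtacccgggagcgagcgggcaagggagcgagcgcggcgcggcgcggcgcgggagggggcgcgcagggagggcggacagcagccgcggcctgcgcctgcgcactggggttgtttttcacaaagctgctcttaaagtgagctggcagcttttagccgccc

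The TXNIP window held the pair of E-box-like elements from 88 to 72 bases before the start, which 0.04556% of 35116 promoter windows of this length also held. It also held a CCAAT box at 140 and at 105 bases, a forkhead motif at 124 bases (2.979% of windows) and a glucocorticoid element at 175 bases (0.3275% of windows). The ARRDC4 window held an E-box at 210 bases (6.345% of windows) and 3 CCAAT boxes, at 187, 128 and 67 bases. The ARRDC3 window held a CCAAT box at 241 bases and none of the other 4 motifs, and 32.01% of windows held a CCAAT box. RefSeq gives TXNIP and ARRDC3 a second start each, and the window of the ARRDC3 start at 91380097 held a forkhead motif at 29 bases, while that of the TXNIP start at 145995744 held none of the 5 motifs. A match is a description of the letters, and binding was not measured.

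Library totals ranged from 16107921 to 31737616 counts, and the mitochondrial share ranged from 0.339% to 0.663% in CD47- cells and from 0.380% to 0.643% in WT cells. Values below are CPM, counts scaled to the TMM-corrected depth of each library, and 3 counts corresponded to between 0.0979 and 0.156 CPM. CD47 mRNA was present in both lines, with 317 ± 42.1 CPM for WT and 147 ± 12.6 CPM for CD47- libraries (SD, n = 10 each), so the mutant line was not free of CD47 transcript. All 11 T cell markers examined were above 1 CPM on average in both lines. Of these, 6 were higher and 1 lower in CD47- cells, where 19.8% and 20.6% of all genes were. From 1 to 6 h 7 rose and 1 fell in each line. Over all genes 25.7% rose and 24.8% fell in WT and 26.0% rose and 27.0% fell in CD47- cells. Of 13 markers of other cells, 2 in WT and 3 in CD47- cells averaged at least 1 CPM, and their summed level was 40.6 to 57.8 CPM in WT and 12.7 to 22.8 CPM in CD47- cells. Of the 5 that were tested, CD79A was lower in CD47- cells (-2.64 on the log2 scale) and NCAM1 (2.36) and COL1A1 (1.14) were higher, where 20.6% and 19.8% of all genes were. Of the same 5, 1 rose from 1 to 6 h in WT and 3 in CD47- cells, where 25.7% and 26.0% of all genes rose. CD79A held most of the summed level of these markers in WT, while the B cell marker MS4A1 averaged under 1 CPM in both lines. The part of these genes in the results was not tested. The CD47- library with CD3+CD28+TSP1 at 3 h had the lowest total, 16107921 counts, and the lowest median correlation with the other libraries of its line, 0.968 against 0.971 to 0.984 for the others. Results whose call changed without it are given both ways.

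TXNIP showed the largest difference of the 5 genes between the lines. It lies at chr1:145992435-145996579 on the minus strand (gene positions are from GENCODE version 44, GRCh38). At 1 h, WT libraries held 34.1 CPM untreated, 31.6 CPM with CD3+CD28, 28.7 CPM with CD3+CD28+TSP1 and 36.5 CPM with TSP1. The CD47- libraries held 139, 123, 122 and 143 CPM in the same order. In both lines the 2 libraries with antibodies were below the untreated and TSP1 libraries at 1 h. At 3 h, WT libraries held 22.4 CPM with CD3+CD28, 24.2 CPM with CD3+CD28+TSP1 and 34.5 CPM with TSP1, and CD47- libraries 117, 86.3 and 136 CPM. At 6 h the WT values were 41.3, 36.6 and 41.6 CPM and the CD47- values 143, 149 and 155 CPM. The highest WT library (41.6 CPM) was below the lowest CD47- library (86.3 CPM), and each of 10 pairs matched for treatment and time was higher in CD47- cells, by 3.45-fold to 5.23-fold.

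**Figure D1:**
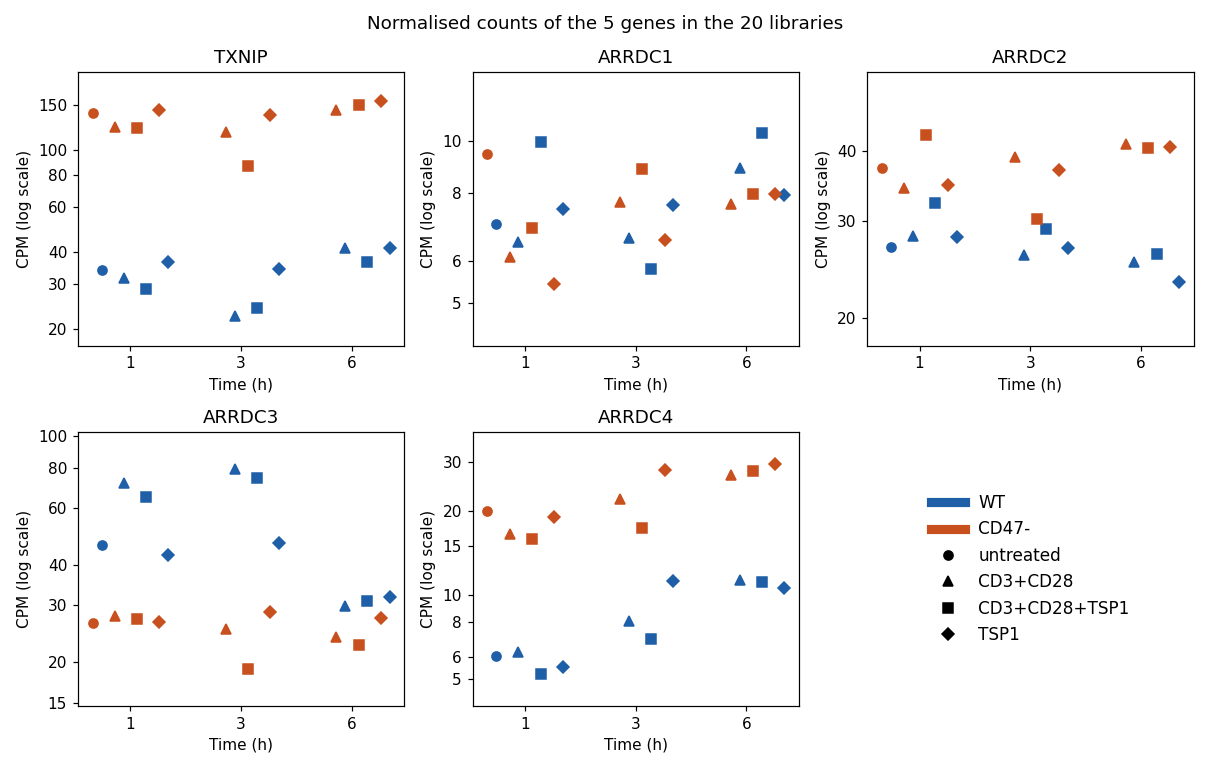
Normalised counts (CPM, log axis) of TXNIP, ARRDC1, ARRDC2, ARRDC3 and ARRDC4 in each of 20 libraries against time in hours, with WT in blue, CD47- in orange and 1 symbol per treatment. TXNIP, ARRDC4 and ARRDC3 separate the lines without overlap, and the WT values of ARRDC3 with antibodies at 1 and 3 h stand above all its other values.

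Over all 20 libraries TXNIP was 1.99 higher in CD47- cells on the log2 scale (SE 0.119, adjusted p = 5.12e-12, edgeR quasi-likelihood test), a 3.96-fold difference. ARRDC4, a close relative of TXNIP that also lowers glucose uptake, was higher by 1.43 (SE 0.173, adjusted p = 5.12e-07). ARRDC2, whose function is less well described, was higher by 0.48 (SE 0.0715, adjusted p = 1.07e-05). ARRDC3, an adaptor that directs β-adrenergic receptors and integrin β4 to ubiquitination, was lower by 1.02 on the log2 scale (log2 fold change -1.02, SE 0.170, adjusted p = 4.06e-05). ARRDC1, which drives the budding of microvesicles from the plasma membrane, stood at -0.07 on the same scale (SE 0.120, adjusted p = 0.681). Thus 4 of 5 members passed the test, where 40.4% of all genes did so, and 3 were higher, where 19.8% of all genes were higher and 20.6% lower. The values of the lines did not overlap for 3 of the 5 genes (TXNIP, ARRDC4 and ARRDC3), where 11.5% of all genes did not overlap. Leaving out the shallowest CD47- library gave 2.06 for TXNIP.

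ARRDC4 (chr15:97960703-97973833, plus strand) held 6.07 CPM untreated, 6.26 CPM with CD3+CD28, 5.22 CPM with CD3+CD28+TSP1 and 5.55 CPM with TSP1 in WT cells at 1 h. The CD47- libraries held 19.999, 16.6, 15.9 and 19.0 CPM. At 3 h WT libraries held 8.06 CPM with CD3+CD28, 6.996 CPM with CD3+CD28+TSP1 and 11.2 CPM with TSP1, against 22.1, 17.4 and 27.9 CPM in CD47- cells. In both lines the TSP1 library was the highest at 3 h. At 6 h WT libraries held 11.4, 11.2 and 10.6 CPM and CD47- libraries 27.0, 27.9 and 29.5 CPM. Each of 10 matched pairs was higher in CD47- cells, by 2.37-fold to 3.42-fold, and the counts behind these values were 117 to 343 in WT and 335 to 686 in CD47- libraries.

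ARRDC3 (chr5:91368631-91383317, minus strand) was the member that was lower in CD47- cells. In WT cells at 1 h it held 46.0 CPM untreated, 71.6 CPM with CD3+CD28, 64.6 CPM with CD3+CD28+TSP1 and 42.8 CPM with TSP1. At 3 h the WT libraries held 79.2 CPM with CD3+CD28, 74.2 CPM with CD3+CD28+TSP1 and 46.7 CPM with TSP1. At 6 h they held 29.8, 30.8 and 31.8 CPM. The 4 WT antibody libraries of 1 and 3 h were thus the 4 highest of the 20, and at 6 h the antibody libraries were no higher than the TSP1 library. CD47- libraries stayed between 19.0 and 28.6 CPM, with a median of 26.5 CPM. All 10 matched pairs were lower in CD47- cells, with CD47- over WT ratios of 0.257 to 0.863. In the 6 pairs with antibodies the log2 fold change was -1.25, and in the 4 pairs without them it was -0.60.

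ARRDC2 (chr19:18001132-18014102, plus strand) ranged from 23.2 to 32.3 CPM in WT libraries (median 26.8) and from 30.2 to 42.8 CPM in CD47- libraries (median 38.2). All 10 matched pairs were higher in CD47- cells, by 1.05-fold to 1.76-fold, and the groups overlapped through the shallowest CD47- library, which had 30.2 CPM. ARRDC1 (chr9:137605685-137615360, plus strand) ranged from 5.78 to 10.3 CPM in WT (median 7.55) and from 5.42 to 9.46 CPM in CD47- libraries (median 7.67). Only 4 of its 10 pairs were higher in CD47- cells. ARRDC5, the remaining family member, did not pass the low-count filter, with 0 to 2 counts in WT libraries and 5 to 15 in CD47- libraries.

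The difference between the lines was then estimated at each time. TXNIP differed by a log2 fold change of 2.01 (SE 0.117) at 1 h, 2.07 (SE 0.118) at 3 h and 1.90 (SE 0.115) at 6 h. ARRDC4 differed by 1.59, 1.36 and 1.34, and ARRDC2 by 0.34, 0.38 and 0.72. Without the shallowest CD47- library the values at 3 h were 2.25 for TXNIP, 0.56 for ARRDC2 and -1.28 for ARRDC3. The 9 values of TXNIP, ARRDC4 and ARRDC2 passed the test, but the ARRDC2 value at 1 h was 0.18 without the CD47- library with CD3+CD28+TSP1 of that time, 0.32 without the WT library with CD3+CD28 and 0.33 without the WT library with TSP1, and the value at 3 h was 0.29 without the CD47- library with CD3+CD28 of 3 h, and none of these then passed. ARRDC3 differed by -1.10 at 1 h and -1.43 at 3 h, both past the test, and by -0.34 at 6 h (SE 0.149, adjusted p = 0.0728, edgeR). The value at 6 h passed without the low-count filter (adjusted p = 0.00880), and ranged from -0.48 without the WT library with CD3+CD28 at 6 h, where it passed, to -0.08 without the WT TSP1 library of 6 h. ARRDC1 did not pass at any time. Hence 4, 4 and 3 of 5 members were called, where 43.0%, 46.4% and 47.2% of all genes were called at 1, 3 and 6 h.

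**Figure D2:**
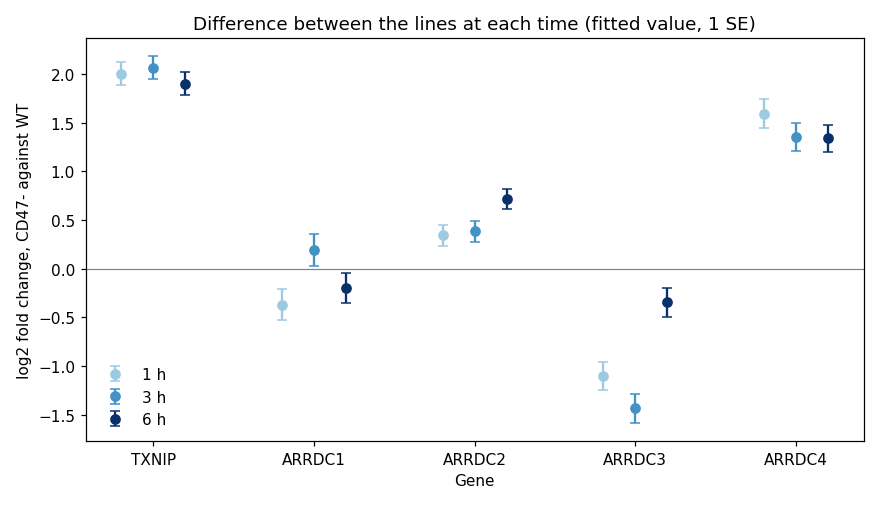
Fitted log2 fold change of CD47- against WT cells for each gene at 1, 3 and 6 h, with bars of 1 SE. TXNIP stays between 1.90 and 2.07, and ARRDC3 moves from -1.43 at 3 h to -0.34 at 6 h.

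ARRDC4 differed between times in both lines. Untreated cells were sampled at 1 h only, and all libraries of 3 and 6 h had antibodies, TSP1 or both. Elapsed time therefore cannot be told apart from the length of treatment or of culture in HITES, for any member. From 1 to 6 h ARRDC4 rose on the log2 scale by 0.97 (SE 0.152, adjusted p = 1.12e-04) in WT and 0.72 (SE 0.136, adjusted p = 4.97e-04) in CD47- cells by edgeR. From 1 to 3 h it rose by 0.62 (adjusted p = 0.00714) in WT cells and 0.38 (adjusted p = 0.0425) in CD47- cells. The WT call was lost without the TSP1 library of 1 h (0.51) or of 3 h (0.38), and the CD47- call without any of 6 libraries of that line, while without the shallowest library the CD47- value was 0.53. TXNIP gave -0.26 in WT (adjusted p = 0.102) and -0.20 in CD47- cells (adjusted p = 0.166) from 1 to 3 h, and neither passed. From 3 to 6 h it rose by 0.58 (SE 0.117, adjusted p = 0.00153) in WT and 0.41 (SE 0.111, adjusted p = 0.00926) in CD47- cells. Without the shallowest CD47- library the CD47- value was 0.24, which did not pass, and without the CD3+CD28+TSP1 library of 6 h it was 0.30, which did not pass either. From 1 to 6 h TXNIP rose by 0.31 in WT cells (adjusted p = 0.0378) and had 0.21 in CD47- cells (adjusted p = 0.124), and the WT call was lost when any of 6 WT libraries was left out, falling to 0.20 without CD3+CD28 at 6 h. The CD47- value passed without the shallowest library (0.21, adjusted p = 0.0325) and by limma voom with quantile normalization (0.30, adjusted p = 0.0165), and was 0.09 without CD3+CD28+TSP1 at 6 h.

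ARRDC3 fell by 0.91 on the log2 scale from 1 to 6 h in WT cells (SE 0.146, adjusted p = 1.44e-04) and by 1.07 from 3 to 6 h (SE 0.146, adjusted p = 7.46e-05) in the edgeR fit. In CD47- cells its change from 1 to 6 h was -0.15 (SE 0.149, adjusted p = 0.426). That value was -0.27 without the CD47- TSP1 library of 1 h. It was -0.03 without the CD47- library with CD3+CD28+TSP1 of 1 h. The change of ARRDC3 from 1 to 6 h differed between the lines by 0.76 (SE 0.209, adjusted p = 0.0246). It was 0.70 with matched libraries as a replicate block (adjusted p = 0.0918), and the call was lost without any of 8 of the 20 libraries. ARRDC1 rose by 0.43 from 3 to 6 h in WT cells (adjusted p = 0.0430), a call that was lost without any of 10 libraries and stood at 0.19 without the WT library with CD3+CD28+TSP1 at 3 h, and ARRDC2 did not pass for time in either line.

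Of the 5 members, 3 were called for 6 h against 1 h in WT cells and 1 in CD47- cells, where 50.5% and 53.0% of all genes were called. In WT cells 2 rose and 1 fell (25.7% and 24.8% of all genes), and in CD47- cells 1 rose and none fell (26.0% and 27.0%). For 3 h against 1 h, 1 of 5 was called in each line, where 34.3% in WT and 38.0% in CD47- were called over all genes, and for 6 h against 3 h it was 3 and 1 of 5 against 39.5% and 38.9%. The lines differed in the change from 1 to 6 h for 1 of 5 members (16.6% of all genes) and in the change from 1 to 3 h for none of 5 (4.28%).

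To ask whether antibodies or TSP1 moved these genes, treatments were compared within each line over the 3 times. No member passed in these comparisons or in 2 tests of a difference between the lines (10 in all) by edgeR, and 8 of 50 values had an unadjusted p under 0.05, as did 366 to 2641 of the 16327 genes in each comparison. DESeq2 and limma voom with quantile normalization also called none, while 4 values passed without the low-count filter. Over all genes 0.0% were called in each comparison except CD3+CD28+TSP1 against TSP1 in WT cells, in which 0.0919% were called and DESeq2 called 54 genes. Each treatment had 1 library per time and the untreated state 1 library per line, which limits these tests.

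The values of TXNIP lay in the same direction in both lines. CD3+CD28+TSP1 against TSP1 gave -0.35 on the log2 scale (SE 0.117, adjusted p = 0.673) in WT and -0.31 (SE 0.110, adjusted p = 0.283) in CD47- cells. The WT value was -0.22 without the WT TSP1 library of 3 h. ARRDC3 gave 0.40 in WT (SE 0.145, adjusted p = 0.777) and -0.27 in CD47- cells (SE 0.150, adjusted p = 0.363). Without the shallowest library these CD47- values were -0.15 for TXNIP and -0.13 for ARRDC3. The lines differed by -0.67 in this value (SE 0.209, adjusted p = 0.705). Both antibody treatments together against TSP1, a comparison added after the values were seen, gave ARRDC3 0.44 in WT (SE 0.128, adjusted p = 0.403) and -0.19 in CD47- cells (SE 0.129, adjusted p = 0.707). The lines differed by -0.62 there (SE 0.181, adjusted p = 0.802). It gave TXNIP -0.31 in WT (SE 0.100, adjusted p = 0.518) and -0.25 in CD47- cells (SE 0.0945, adjusted p = 0.695). Without the TSP1 library of 3 h of the same line, TXNIP gave -0.19 in WT and -0.15 in CD47- cells, and ARRDC3 -0.10 in CD47- cells, where it gave -0.31 without the TSP1 library of 1 h. In this comparison 0.11% of all genes were called in WT cells and 0.0% in CD47- cells and in the difference. Without the low-count filter TXNIP and ARRDC3 passed in WT cells in this comparison, and so did the ARRDC3 difference between the lines. CD3+CD28+TSP1 against TSP1 then gave TXNIP -0.36 in WT (adjusted p = 0.0498) and -0.32 in CD47- cells (adjusted p = 0.0470), ARRDC3 0.39 in WT cells (adjusted p = 0.0340) and its difference between the lines -0.67 (adjusted p = 0.00201). With the filter, ARRDC3 in WT cells passed in CD3+CD28+TSP1 against TSP1 without the WT TSP1 library of 6 h (0.66, adjusted p = 0.0350). Without the WT TSP1 library of 3 h it gave 0.26, which did not pass.

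**Figure D3:**
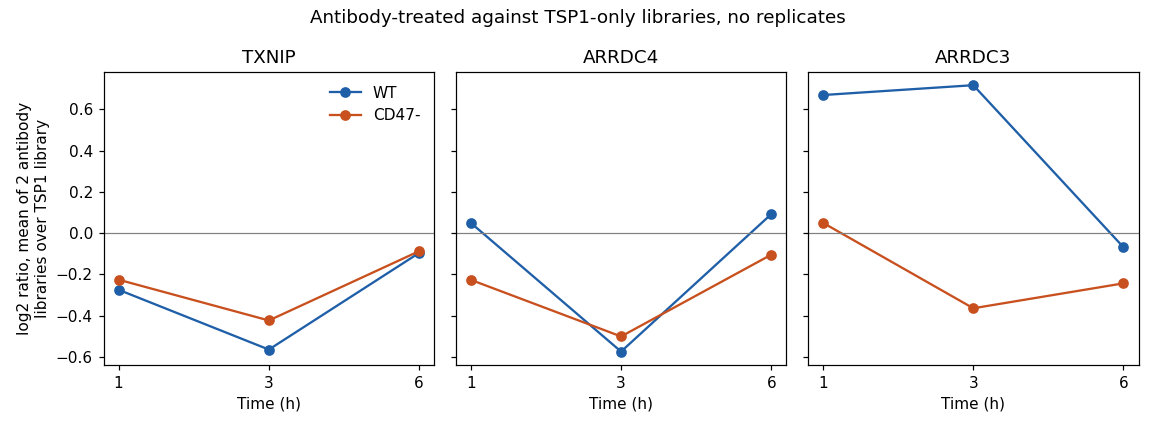
Log2 ratio of the mean CPM of the 2 antibody libraries to the CPM of the TSP1 library at 1, 3 and 6 h for TXNIP, ARRDC4 and ARRDC3, with WT in blue and CD47- in orange and no replicates. At 3 h TXNIP and ARRDC4 are below 0 in both lines, and ARRDC3 is at 0.67 and 0.72 in WT cells at 1 and 3 h and at -0.07 at 6 h.

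The ratio of antibody to TSP1 libraries was taken at each time as a description, since 2 libraries stand against 1. For TXNIP it was 0.827, 0.677 and 0.936 at 1, 3 and 6 h in WT and 0.855, 0.746 and 0.941 in CD47- cells. The ratio was lowest at 3 h in both lines. For ARRDC4 it was 1.03, 0.672 and 1.07 in WT and 0.855, 0.707 and 0.930 in CD47- cells. For ARRDC3 it was 1.59, 1.64 and 0.954 in WT and 1.04, 0.777 and 0.845 in CD47- cells. The model for treatments gives 1 effect for all 3 times, so a response present at 1 and 3 h and absent at 6 h enters it as spread. ARRDC1 was higher in the untreated CD47- library (9.46 CPM) than in the 3 treated libraries of 1 h (5.42 to 6.90 CPM), and TSP1 against untreated gave -0.75 (SE 0.234, adjusted p = 0.425).

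Levels were compared between genes as CPM per kb of transcript, for which each isoform count was divided by its annotated length. In WT cells ARRDC3 stood at 15.97 ± 5.45, TXNIP at 12.3 ± 2.49, ARRDC2 at 10.4 ± 0.733, ARRDC1 at 4.83 ± 0.929 and ARRDC4 at 2.03 ± 0.633 CPM per kb (SD, n = 10). In CD47- cells TXNIP stood at 48.3 ± 7.57, ARRDC2 at 14.6 ± 1.54, ARRDC3 at 7.67 ± 0.997, ARRDC4 at 5.50 ± 1.299 and ARRDC1 at 4.55 ± 0.395. By these means ARRDC3 was first in WT and TXNIP first in CD47- cells. The WT order also varied with time, since at 6 h TXNIP (13.9 to 15.6 CPM per kb) was above ARRDC3 (8.995 to 10.7) in the 3 WT libraries. The ranges of ARRDC3 (8.995 to 22.8) and TXNIP (8.22 to 15.6) overlapped in WT cells, as did those of TXNIP and ARRDC2 (9.07 to 11.8). In CD47- cells the lowest TXNIP value, 31.1, was above the highest ARRDC2 value, 16.4, and ARRDC4 (3.92 to 7.26) overlapped ARRDC1 (3.92 to 5.06).

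**Figure D4:**
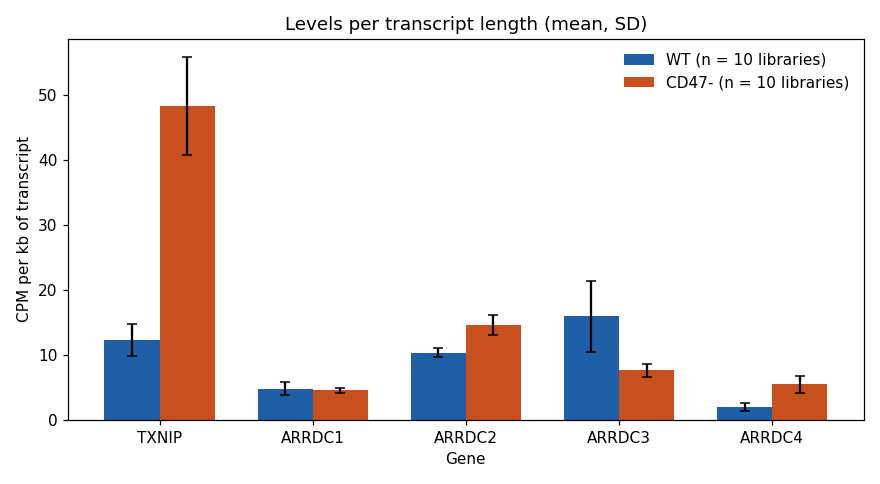
Mean CPM per kb of transcript for each gene in WT (blue) and CD47- (orange) cells, with bars of 1 SD over 10 libraries. TXNIP is at 12.3 in WT and 48.3 in CD47- cells, and ARRDC3 at 15.97 and 7.67.

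At the isoform level the main TXNIP transcript held most of the TXNIP counts in both lines. TXNIP-204 took 94.1% of TXNIP counts in WT and 94.8% in CD47- cells, and was 2.02 higher in CD47- cells on the log2 scale (SE 0.125, adjusted p = 2.17e-10, edgeR). Minor TXNIP isoforms, each under a 10% share, were also higher, by 2.03 (adjusted p = 4.95e-06) and 1.58 (adjusted p = 3.40e-04) in the edgeR test. ARRDC4 has 1 annotated isoform in the table, which was higher by 1.46 (SE 0.192, adjusted p = 1.15e-05). ARRDC3-201 took 95.7% of ARRDC3 counts in WT and was lower in CD47- cells, by log2 fold change -0.997 (SE 0.177, adjusted p = 3.69e-04). Over all isoforms 15.1% were called between the lines.

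ARRDC2 and ARRDC1 divided their counts over several isoforms. ARRDC2-201 and ARRDC2-202, which start at 18008170 and 18001132 of chromosome 19, took 46.9% and 31.2% of ARRDC2 counts in WT and 40.0% and 38.3% in CD47- cells. The share of ARRDC2-202 ranged from 6.70% to 63.7% over CD47- libraries, so the split was not stable between libraries. Its log2 fold change between the lines was 0.84 (SE 0.295, adjusted p = 0.0608) and that of ARRDC2-201 was 0.25 (adjusted p = 0.455), so no single ARRDC2 isoform named here carried the difference past the test. ARRDC2-203, with a retained intron, fell by 1.15 on the log2 scale from 1 to 6 h in WT cells (SE 0.262, adjusted p = 0.0147) and had -0.03 in CD47- cells. In WT cells it held 6.05 to 9.67 CPM at 1 h and 3.24 to 3.85 CPM at 6 h. From 1 to 6 h, 14.9% of isoforms were called in WT and 17.4% in CD47- cells. ARRDC1-201 and ARRDC1-210 took 42.0% and 41.3% of ARRDC1 counts in WT and 38.0% and 45.2% in CD47- cells, and ARRDC1-204, annotated for nonsense-mediated decay, 12.4% and 11.3%. None of these 3 passed between the lines.

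An antisense gene overlaps each of ARRDC1 and ARRDC3, and how strand was used in counting is not given in the sources used here. ARRDC1-AS1 shares 35 of the 1556 bases of the main ARRDC1 transcript, and ARRDC3-AS1 shares 145 of 4985 exonic bases of ARRDC3 but none of its main transcript. ARRDC3-AS1 had 2.31 ± 0.633 CPM in WT and 1.49 ± 0.610 CPM in CD47- libraries (SD, n = 10), far under ARRDC3. ARRDC1-AS1 had 19.6 ± 2.48 CPM in WT and 15.8 ± 1.08 CPM in CD47- libraries, above ARRDC1, so the ARRDC1 count is uncertain.

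The genes that sense and phosphorylate glucose were described next, with 7 of 8 tested. Between the lines 3 were higher in CD47- cells and none lower, with a median log2 fold change of 0.39 against -0.01 over all genes, of which 19.8% were higher and 20.6% lower. HK2, a hexokinase that traps glucose in the cell, averaged 41.0 ± 19.3 CPM for WT and 86.6 ± 24.6 CPM for CD47- libraries (SD, n = 10; log2 fold change 1.08, SE 0.266). MLXIP and MLX, factors known to drive TXNIP and ARRDC4, were higher by 0.57 (SE 0.139) and 0.39 (SE 0.0817). Their part in the differences of TXNIP and ARRDC4 between the lines was not tested. The neuron-type glucose transporter SLC2A3 fell by 2.05 from 1 to 6 h in WT and by 1.65 in CD47- cells on the log2 scale. Over this time 2 of the list rose and 4 fell in WT, and 2 rose and 2 fell in CD47- cells. Over all genes 25.7% rose and 24.8% fell in WT and 26.0% rose and 27.0% fell in CD47- cells.

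Of 13 thioredoxin and peroxiredoxin genes, 2 were higher and 3 lower in CD47- cells (median -0.10), against 19.8% and 20.6% of all genes. TXNRD1, which reduces thioredoxin, averaged 396 ± 89.1 CPM for WT and 238 ± 36.5 CPM for CD47- libraries (SD, n = 10; log2 fold change -0.73, SE 0.117), and NXN, a thioredoxin relative, was lower with -1.38 (SE 0.173). From 1 to 6 h, 9 rose and none fell in WT (median 0.43), and 7 rose and 1 fell in CD47- cells (median 0.30). Over all genes 25.7% rose and 24.8% fell in WT and 26.0% rose and 27.0% fell in CD47- cells. PRDX4, a peroxiredoxin of the endoplasmic reticulum, rose by 0.96 in WT and 1.17 in CD47- cells.

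Of 11 NEDD4 family ligases and adaptors, 2 were higher and 4 lower in CD47- cells (median -0.06), where 19.8% and 20.6% of all genes were. HECW1 had 8.59 ± 1.56 CPM among WT and 1.39 ± 0.295 CPM among CD47- libraries (SD, n = 10; log2 fold change -2.61, SE 0.139). NEDD4 itself was lower with -0.79 (SE 0.0790), and HECW2 was higher by 1.75 (SE 0.303) at a low level. WWP2, a partner of ARRDC1, rose from 1 to 6 h by 0.74 in WT and 0.67 in CD47- cells. Over this time 3 of the list rose and 4 fell in WT, and 3 rose and 3 fell in CD47- cells. Over all genes 25.7% rose and 24.8% fell in WT and 26.0% rose and 27.0% fell in CD47- cells.

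Of 8 other arrestin-fold genes, 6 were tested and 3 were higher in CD47- cells, with none lower (median 0.22), against 19.8% and 20.6% of all genes. ARRB1, the β-arrestin that ends signaling of G protein-coupled receptors, had 11.1 ± 3.84 CPM among WT and 70.2 ± 21.6 CPM among CD47- libraries (SD, n = 10; log2 fold change 2.66, SE 0.213, adjusted p = 8.33e-10, edgeR). This difference was larger than that of any of the 5 members. ARRB1 also rose from 1 to 6 h, by 1.15 in WT and 1.00 in CD47- cells. It was the only tested gene of this list that rose, while 3 fell in each line. The medians were -0.22 in WT and -0.28 in CD47- cells. Over all genes 25.7% rose and 24.8% fell in WT and 26.0% rose and 27.0% fell in CD47- cells.

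Of 16 FOXO factors, FOXO targets and quiescence genes, 3 were higher and 5 lower in CD47- cells (median -0.29), against 19.8% and 20.6% of all genes. IRS2, an adaptor of the insulin receptor, had 1.79 ± 0.979 CPM among WT and 0.171 ± 0.0971 CPM among CD47- libraries (SD, n = 10; log2 fold change -3.35, SE 0.393), close to the level of 3 counts in CD47- cells. From 1 to 6 h, 12 fell and 1 rose in WT (median -0.67), and 10 fell and none rose in CD47- cells (median -0.92), where 24.8% and 27.0% of all genes fell. CCNG2, a cyclin of arrested cells, fell by 1.82 in CD47- and by 0.86 in WT cells. BTG1, an antiproliferative gene, fell by 1.55 in WT and by 0.99 in CD47- cells. KLF2, a quiescence factor of T cells, had 2.70 ± 0.627 CPM among WT and 5.54 ± 0.596 CPM among CD47- libraries (SD, n = 10), and SESN3, a sestrin, was lower in CD47- cells with -1.05 (SE 0.175).

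Of 10 genes of the glucocorticoid receptor and its response, 4 were higher and 6 lower in CD47- cells (median -0.66), against 19.8% and 20.6% of all genes. ZBTB16, a zinc finger factor induced by glucocorticoids, had 2.16 ± 0.631 CPM among WT and 0.165 ± 0.113 CPM among CD47- libraries (SD, n = 10; log2 fold change -3.71, SE 0.303), also close to the level of 3 counts in CD47- cells. SGK1, a kinase induced by glucocorticoids, had 20.6 ± 3.69 CPM among WT and 52.3 ± 7.39 CPM among CD47- libraries (SD, n = 10; log2 fold change 1.34, SE 0.106). TSC22D3, a leucine zipper gene of the same response, was higher by 1.11 (SE 0.290) and fell from 1 to 6 h by 1.66 in WT and 1.32 in CD47- cells. In all, 8 genes fell and 1 rose in WT cells over this time, and 2 fell and 2 rose in CD47- cells, where 24.8% of all genes fell in WT and 27.0% in CD47- cells.

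Of 6 AMPK subunits and STK11 tested, 2 were higher and 1 lower in CD47- cells (median -0.02; 19.8% and 20.6% of all genes), with PRKAB1, a regulatory subunit, higher by 0.68 (SE 0.126). Of 7 binding partners and cargo, 1 was higher and none lower (median 0.03). That gene was NLRP3, an inflammasome sensor that binds TXNIP, with 0.478 ± 0.186 CPM among WT and 3.93 ± 0.757 CPM among CD47- libraries (SD, n = 10; log2 fold change 3.04, SE 0.205). INSR, the insulin receptor, fell from 1 to 6 h by 0.67 in WT and 0.66 in CD47- cells. Over this time none of the 7 rose and 4 fell in each line. Of all genes, 24.8% fell in WT and 27.0% in CD47- cells.

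Genes most like each member within the lines were found by the Pearson correlation of log2 CPM centred on the mean of each line, over 20 libraries and 13093 genes. These libraries share treatments and times, and the values are a description. For TXNIP they were TRIM13 (0.92), FUCA1 (0.89) and CYB5R1 (0.88). For ARRDC4 they were CENPS (0.95), CISD1 (0.93) and FAM104B (0.93), and for ARRDC3 PLAU (0.98), ALAS1 (0.96) and ARF4 (0.93). The genes most like TXNIP, ARRDC4 and ARRDC3 were not members of the family. For ARRDC2 they were RN7SK (0.86), GPR108 (0.83) and ATP6V1F (0.83), and for ARRDC1 NKD2, INTS1 and PKD1, each at 0.91.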

How the data were processed

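Cells and treatments are given above. The authors deposited expected counts per gene and isoform, made with RSEM 1.3.3 on GENCODE version 36 after trimming (Cutadapt 1.18) and alignment to GRCh38 (STAR 2.4.2a). Such counts are estimates that need not be whole, are not scaled for depth or length, and were rounded here. The ComBat step of the study was not repeated, since its batch is not given in the sources used here. Each deposited file also held 2 columns of no sample here, which were not used.

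Tests were run in edgeR 4.0.16 under R 4.3.3, with limma 3.58.1 and DESeq2 1.42.0 as alternatives, and tables were made with pandas 2.3.3 and numpy 2.4.6. The low-count filter was filterByExpr grouped on the line, at a count of 10 and a total of 15. After TMM scaling the quasi-likelihood test was adjusted by Benjamini and Hochberg over all 16327 genes, with a threshold of 0.05. The lines were compared over 10 libraries each. Time, treatment and line differences came from 1 model with a term for each line and treatment and for 3 and 6 h in each line. Isoforms were tested alike. Scripts were tested on simulated data. Log2 CPM used a pseudocount of 0.5.

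Replicate numbers mark libraries of the same treatment and time in both lines. Deviations of matched libraries from their line means correlated between 0.127 and 0.603, over 0.1 in 10 of 10 pairs. These deviations still hold the effects of treatment and time, and unmatched libraries were not compared. The correlations thus cannot show a shared culture or batch. The numbers were taken to pair libraries by treatment and time only. Floors cover counting error only. From each list, up to 3 called genes of largest change were eligible to be named, and for each member the 3 most correlated genes whose mean log2 CPM was 1 or more. Isoforms were named from a 10% share. The members and lists were chosen with earlier results of these data known.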

Additional observations from a re-analysis of the deposited data

Results flagged for a closer look

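The CD47- library with CD3+CD28+TSP1 at 3 h had 86.3 CPM of TXNIP, far below the other 9 CD47- libraries. This was the only value that stood apart in 20 groups examined, and how often chance would flag a value was not measured. The library is the shallowest, and it had the highest TMM factor (1.2) and mitochondrial share (0.663%) of all libraries. The part of its depth, scaling or quality in this TXNIP value was not tested. The change of ARRDC3 from 1 to 6 h differed between the lines by 0.76 on the log2 scale in a test of the difference, which did not pass with matched libraries as a replicate block (0.70, adjusted p = 0.0918, edgeR).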

How the results depend on the processing

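Between the lines, TXNIP, ARRDC4, ARRDC2 and ARRDC3 kept their direction and their call under DESeq2, upper-quartile factors, limma voom with quantile normalization, both other low-count filters, a shared time term, the replicate block, the 6 activated and the 4 unactivated pairs, and without any single library. The rise of ARRDC4 from 1 to 6 h in both lines and the fall of ARRDC3 in WT cells kept their calls in the 7 settings run for them (both other tools, upper-quartile factors, both filters, each line alone, and no untreated libraries) and without any single library. With libraries paired by treatment and time as a replicate block, the ARRDC3 difference between the lines from 1 to 6 h was 0.70, past the threshold no longer, and 322 genes were called for the difference from 1 to 3 h in place of 698. The block was run for differences between the lines over all libraries, at each time and in the change over time, and changed no other call of a member there. The rise of TXNIP from 1 to 6 h in WT cells did not pass by limma voom with quantile normalization (0.26) or without the untreated libraries (0.30), nor did that of ARRDC4 from 1 to 3 h in CD47- cells (0.34 and 0.39). That of ARRDC1 from 3 to 6 h in WT cells did not pass by DESeq2 (0.42), with upper-quartile factors (0.39), at 1 CPM or more in every library (0.41) or in that line alone (0.42).

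Without the low-count filter, CD3+CD28+TSP1 against TSP1 passed for TXNIP in both lines, for ARRDC3 in WT cells and for its difference between the lines, ARRDC3 passed between the lines at 6 h, and both antibody treatments against TSP1 gave -0.31 for TXNIP (adjusted p = 0.0272) and 0.43 for ARRDC3 (adjusted p = 6.57e-04) in WT cells by edgeR, and -0.62 for the ARRDC3 difference between the lines (adjusted p = 4.57e-04). The comparison of both antibody treatments was chosen after seeing the data. Without that filter the genes called numbered 270 for CD3+CD28 against untreated, 248 for TSP1 against untreated, 84 for CD3+CD28+TSP1 against CD3+CD28, 201 against TSP1 and 266 for both antibody treatments against TSP1 in WT cells. In CD47- cells they numbered 256, 540, 399, 535 and 240 in the same order, in the differences between the lines 137 and 255 for CD3+CD28+TSP1 against CD3+CD28 and TSP1 and 290 for both antibody treatments, and 1397 for the change from 1 to 3 h. By DESeq2 they were 7, 1, 1, 54 and 81 in WT cells, 2 and 3 against untreated in CD47- cells, and 4, 5 and 1069 in the differences for CD3+CD28+TSP1 against TSP1, both antibody treatments and 1 to 3 h. Limma voom with quantile normalization called 28 for CD3+CD28+TSP1 against TSP1 and 38 for both antibody treatments in WT cells and 1 in their difference, and a time effect shared by both lines left 2 and 3. Between the lines the 6 activated pairs called 4065 genes and the 4 unactivated pairs 2705, with fewer libraries. The cause of these changes was not tested.

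Leaving out 1 library at a time gave 0.24 to 0.51 for TXNIP from 3 to 6 h in CD47- cells and 0.63 to 1.02 for the ARRDC3 difference between the lines. Both antibody treatments against TSP1 gave 0.29 to 0.69 for ARRDC3 in WT cells and -0.88 to -0.48 for its difference, and these passed only without the WT TSP1 library of 6 h. Genes called ranged from 169 to 1063 and from 1460 to 4275 for the differences from 1 to 3 h and 1 to 6 h. In WT cells they ranged from 0 to 226 and 0 to 66 for CD3+CD28 and TSP1 against untreated, 0 to 42 for CD3+CD28+TSP1 against TSP1 and 0 to 66 for both antibody treatments. In CD47- cells they ranged from 0 to 6 for CD3+CD28 against untreated, 0 to 1 for CD3+CD28+TSP1 against CD3+CD28 and 0 to 6 for both antibody treatments. In the differences between the lines they ranged from 0 to 1 for CD3+CD28+TSP1 against CD3+CD28, 0 to 9 against TSP1 and 0 to 11 for both antibody treatments.

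With the longest annotated transcript as length, ARRDC1 had 2.45 CPM per kb in WT and 2.34 in CD47- cells, and ARRDC2 had 7.25 and 10.1. Without centring on the line means, none of the 3 genes most like TXNIP, ARRDC2, ARRDC3 or ARRDC4 stayed among the first 3, and 1 did for ARRDC1. Treatment effects at a single time were not tested, and 3 counts, or 0.0979 to 0.156 CPM, set the floor of detection.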
